A study of Rattus norvegicus with 4 samples.

Results

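The genes of fatty acid uptake, binding and caveolae were Lpl, Cd36, Fabp4, Fabp5, Slc27a1, Cav1, Cav2, Cavin1 and Vldlr. They were chosen by name, with earlier results of these data known. Of these 9 genes, 8 were matched to a probe set annotated with that symbol alone, 11 probe sets among 15866 and 8 genes among 10411. Cavin1 had no such match and was not analysed here, and 1 further probe set annotated to both Cd36 and Cd36l1 was left out. Where a gene had several probe sets, the one with the highest mean signal over the 4 arrays was its main probe set. The samples came from visceral fat of 130-day-old male Wistar rats, with 2 arrays labelled obese and 2 labelled control. The labels give neither the cause of the obesity nor the control diet, and they leave unsaid whether RNA was pooled across animals, so the p-values below cover the variation between these 4 samples alone, part or all of which may be technical.

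Adipocytes take most of their stored fatty acids from circulating lipoproteins. Lipoprotein lipase, the product of Lpl, is made by adipocytes and splits triglyceride at the capillary wall. The released fatty acids cross the cell membrane with the help of the scavenger receptor CD36 and the transport protein FATP1 (Slc27a1), and inside the cell they are carried by the binding proteins FABP4 and FABP5. Caveolae are small pits of the plasma membrane that are abundant in adipocytes and endothelium. Caveolin-1 and caveolin-2 (Cav1, Cav2) form their shell and cavin-1 (Cavin1) coats them. The very low density lipoprotein receptor, Vldlr, binds triglyceride-rich particles, and in mice it takes part in the supply of lipid to fat.

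Several of these genes lie side by side in the rat genome. In the RefSeq gene table of the GRCr8 assembly, Cav2 and Cav1 are neighbours on chromosome 4 with 0 protein-coding genes between them. Fabp4 and Fabp5 lie on chromosome 2 with 2 genes between them, Fabp9 and Pmp2, which encode other proteins of the same binding family. Cd36 and Cd36l1, which share the probe set that was left out, are also neighbours. The promoter table of RefSeq genes in GRCr8 held entries for 6 of the 9 genes, each running from 250 bases before to 50 bases after the start. The promoters of the caveolin pair are shown because the genes are adjacent, and that of Vldlr because it was the only member whose main probe set did not overlap between the groups. Cav1 has 2 starts in that table. All 4 lie on the plus strand, at chr1:234240436-234240735 for Vldlr, chr4:46582431-46582730 for Cav2, and chr4:46606288-46606587 and chr4:46607722-46608021 for Cav1. Capitals mark matches to the motifs described after them.
Vldlr: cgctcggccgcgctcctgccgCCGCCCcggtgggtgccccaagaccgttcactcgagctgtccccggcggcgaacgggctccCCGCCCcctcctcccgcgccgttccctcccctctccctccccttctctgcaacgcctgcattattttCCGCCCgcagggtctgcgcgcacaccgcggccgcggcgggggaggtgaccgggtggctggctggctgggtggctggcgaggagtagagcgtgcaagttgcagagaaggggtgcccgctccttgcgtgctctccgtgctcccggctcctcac
Cav2: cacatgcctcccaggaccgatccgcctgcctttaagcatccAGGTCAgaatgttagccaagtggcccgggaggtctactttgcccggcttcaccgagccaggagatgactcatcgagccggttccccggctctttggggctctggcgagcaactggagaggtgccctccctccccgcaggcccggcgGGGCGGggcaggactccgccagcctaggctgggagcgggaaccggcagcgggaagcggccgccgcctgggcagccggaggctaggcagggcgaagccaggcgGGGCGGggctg
Cav1, first start: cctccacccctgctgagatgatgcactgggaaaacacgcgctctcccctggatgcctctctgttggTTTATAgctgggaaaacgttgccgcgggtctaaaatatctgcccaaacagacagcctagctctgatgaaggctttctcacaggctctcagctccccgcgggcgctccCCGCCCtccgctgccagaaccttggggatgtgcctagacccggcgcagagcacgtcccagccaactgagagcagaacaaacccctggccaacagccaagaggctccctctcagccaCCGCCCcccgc
Cav1, second start: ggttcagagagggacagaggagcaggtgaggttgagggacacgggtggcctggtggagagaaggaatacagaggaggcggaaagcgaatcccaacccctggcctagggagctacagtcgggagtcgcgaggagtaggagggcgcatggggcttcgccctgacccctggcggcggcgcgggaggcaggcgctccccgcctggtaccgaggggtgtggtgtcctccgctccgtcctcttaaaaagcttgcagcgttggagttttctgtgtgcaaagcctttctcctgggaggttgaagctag

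The motifs searched, on both strands, were the GC box GGGCGG, the CCAAT box CCAAT, the TATA box TATAAA, the nuclear receptor half-site AGGTCA, the E-box CACGTG and the direct repeat AGGTCANAGGTCA, to which the fat cell regulator PPAR-gamma binds with its partner RXR. The Vldlr promoter held 3 GC boxes and had a GC content of 73.0%, against a median of 51.7% over all 33469 promoters. Cav2 held 2 GC boxes and 1 half-site. The first Cav1 start held 2 GC boxes and 1 TATA motif, and the second held 0 of the 6 motifs. The printed matches do not overlap each other. A GC box was found in 33.1% of all promoters, a CCAAT box in 37.5%, a TATA motif in 14.2%, a half-site in 16.2% and an E-box in 6.42%, while the direct repeat was found in 0.0538% and in 0 of these 4. These matches describe letters in the window and not bound sites.

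The tissue and the arrays were first checked. The trimmed mean signal lay between 150.026 and 150.03 on the 4 arrays, and the values were used as deposited. All 15 measured markers of fat cells lay above the 20th percentile of signals, 20.8, on 4 arrays, between a lowest signal of 75.0 for the glucose transporter gene Slc2a4 and a highest of 3533.9 for adipsin, Cfd. Obese replicate 1 stood apart in some of the smooth muscle genes. The visceral smooth muscle actin gene Actg2 had a signal of 675.1 on it and of 77.4 on obese replicate 2, against 82.9 and 91.5 in control tissue. Other smooth muscle and pericyte markers went the other way between the obese arrays, among them Mcam with 1348.2 and 1664.6. Summed over 10 measured markers, mesothelial and epithelial signal was 2538.9 and 453.8 in obese tissue, against 932.1 and 1113.9 in control tissue. On obese replicate 2, signals were more spread: its median was 75.0, against 82.2 on obese replicate 1 and 83.1 and 82.8 on the control arrays, and its highest signal was 5022.9, against 3920.1 on obese replicate 1 and 3802.6 and 4675.0 on the control arrays. Precision is limited by the number of arrays.

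The arrays were compared to see how these genes differed between obese and control visceral fat. None of the 8 genes passed the test, and all 8 gave log2 differences within a narrow band, between -0.15 for Slc27a1 and 0.24 for Vldlr. Signals below 20.8, the 20th percentile, were set to that floor before log2 was taken, and all 11 probe sets lay above it on all 4 arrays. In the limma fit over 12929 probe sets, 0 of the 8 main probe sets passed an adjusted p of 0.05, with adjusted p between 0.741 and 0.971, and 0% of all probe sets did. At an unadjusted p under 0.05 the members' main probe sets gave 0, where 8.3% of all probe sets passed. The 95% interval of the difference included 0 for 8 of 8 genes. These intervals reached from -0.67 to 0.70 on the log2 scale, that is from 0.628-fold to 1.62-fold. With 2 arrays a group an exact permutation test could not give a two-sided p below 0.333, and none was run.

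The 2 obese arrays were both higher than the 2 control arrays for 1 of the 8 genes, Vldlr, where 15.6% of all tested probe sets did so. They lay below for 0 of 8, where the share over all probe sets was 24.4%. The split over all probe sets depends on the scaling: it was 22.1% above and 16.6% below with each array centred on its median. Of the 8 genes, 5 had a higher mean in obese tissue and 3 a lower one, with a median log2 difference of 0.11, and the median over all 9011 tested genes was -0.04. Without obese replicate 2 the members' median was -0.11, and without obese replicate 1 it was 0.25.

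**Figure D1:**
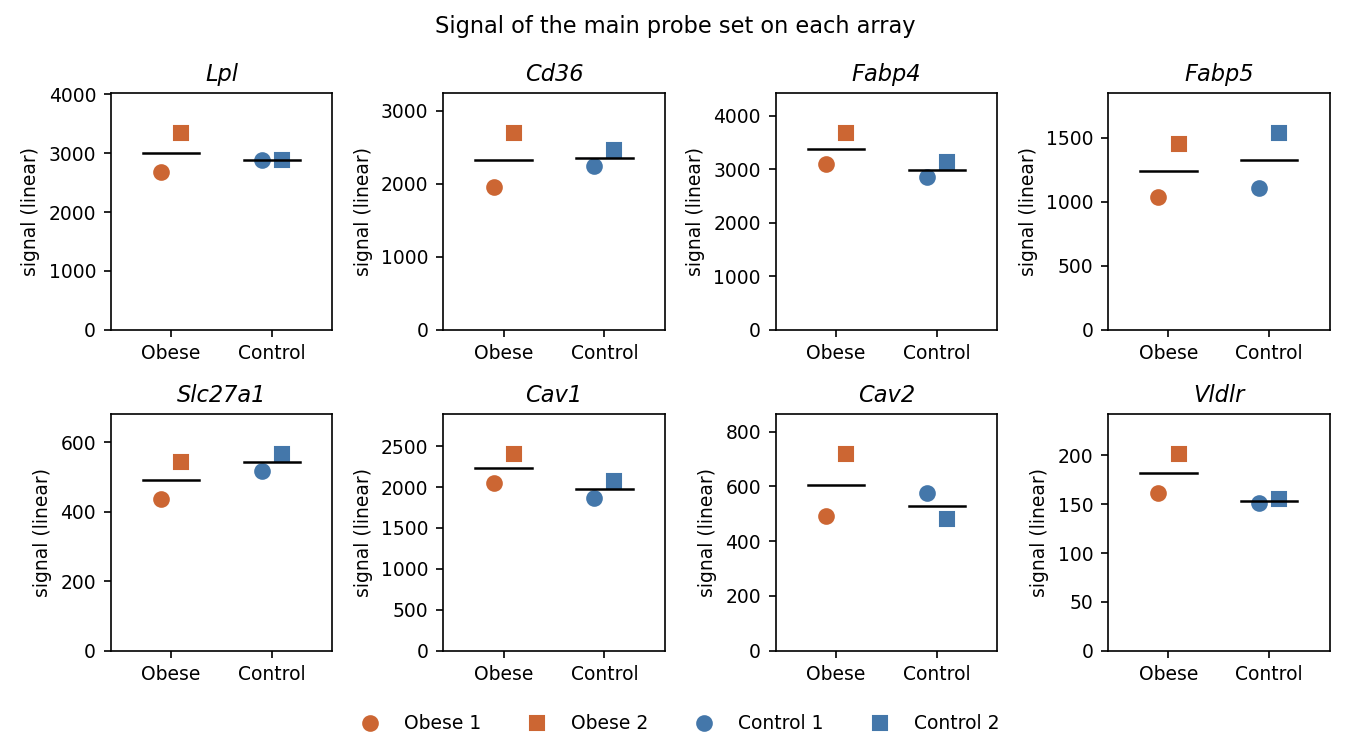
Signal of the main probe set of each of the 8 genes (vertical axis, linear scale from 0) on the 2 obese arrays (left, orange) and the 2 control arrays (right, blue), with circles for replicate 1, squares for replicate 2 and black lines for group means. The groups overlap for all genes but Vldlr, where 161.9 and 201.6 in obese tissue lie above 150.8 and 154.9 in control tissue.

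Lipoprotein lipase comes first on the way from blood to fat cell. Lpl had signals of 2674.9 and 3347.4 in obese tissue and of 2889.7 and 2891.2 in control tissue. The 2 control arrays were nearly equal, and the obese arrays lay on either side of them. The difference was 0.05 ± 0.17 (SE, limma adjusted p = 0.956), with an interval from -0.38 to 0.48, and it was -0.024 with quantile normalization and -0.049 with cyclic loess. Vldlr had signals of 161.9 and 201.6 in obese tissue and of 150.8 and 154.9 in control tissue with its main probe set. The groups did not overlap, by a gap smaller than that between the 2 obese arrays. The difference was 0.24 ± 0.16 (SE, limma adjusted p = 0.741), and it was 0.083 without obese replicate 2 and 0.40 without obese replicate 1.

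The 3 probe sets of Vldlr did not give the same size. Probe set 1389611_at had signals of 132.6 and 163.9 in obese tissue and of 89.6 and 104.4 in control tissue. Here the groups were fully apart, and the log2 difference was 0.61 ± 0.19, with an interval from 0.15 to 1.07. It did not pass over all probe sets (limma adjusted p = 0.522), and its unadjusted p was under 0.05, as for 8.3% of all probe sets, of which 447 had a smaller one. Its difference was between 0.46 and 0.76 with an array left out, and between 0.66 and 0.69 with the 3 other scalings. Probe set 1369098_at had signals of 107.8 and 135.3 in obese tissue and of 112.6 on both control arrays. Its groups overlapped, and its difference was 0.10 ± 0.18. All 3 probe sets were higher on average in obese tissue, by 1.07-fold to 1.52-fold, and this sign held in all 3 under the 3 other scalings, while 1369098_at gave -0.06 without obese replicate 2.

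**Figure D2:**
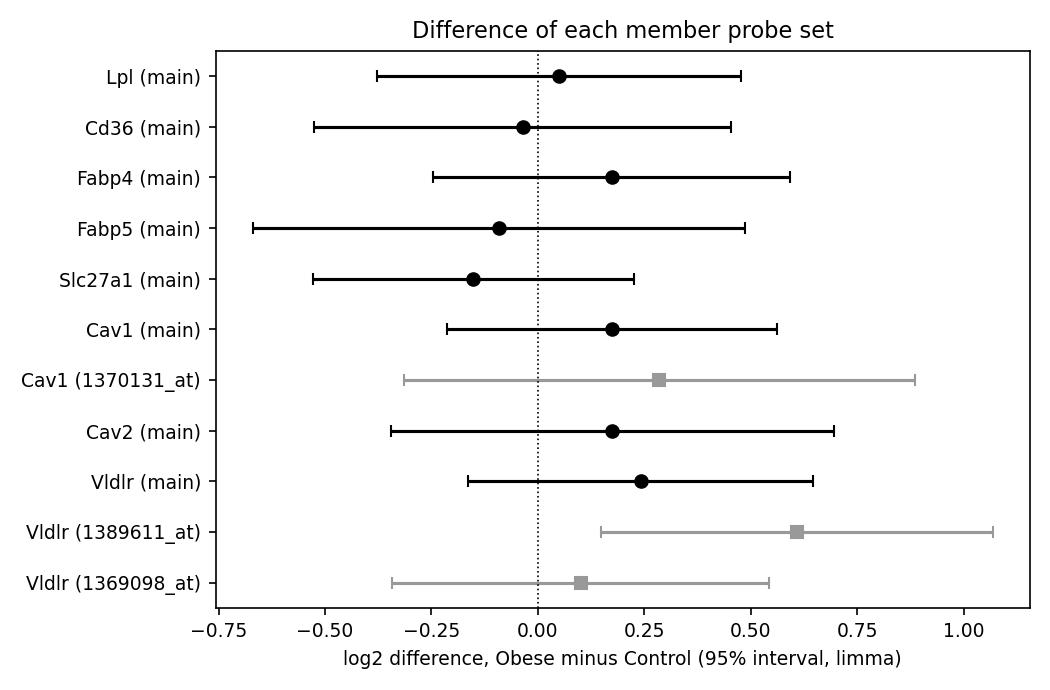
Log2 difference, obese minus control, of all 11 probe sets (horizontal axis), with 95% intervals from limma; black circles are main probe sets and grey squares the others. The interval includes 0 for all but probe set 1389611_at of Vldlr, which runs from 0.15 to 1.07.

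Fatty acids enter through CD36 and FATP1. Cd36 had signals of 1947.1 and 2694.9 in obese tissue and of 2246.6 and 2453.7 in control tissue. The control arrays lay between the 2 obese arrays. The difference was -0.04 ± 0.20 (SE, limma adjusted p = 0.971), and it was 0.044 with median centring. Slc27a1 had signals of 437.2 and 544.1 in obese tissue and of 517.9 and 566.5 in control tissue. Obese replicate 1 was the lowest of the 4 and obese replicate 2 lay between the controls. The difference of -0.15 ± 0.15 (limma adjusted p = 0.825) was the lowest among the 8 genes, and it was 0.0065 without obese replicate 1.

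The binding proteins FABP4, the main one of mature fat cells, and FABP5, which macrophages also make, differed in the size of their replicate gaps. Fabp4 had signals of 3092.3 and 3679.8 in obese tissue and of 2853.1 and 3134.1 in control tissue. Control replicate 2 lay just above obese replicate 1, so the groups overlapped narrowly. The difference was 0.17 ± 0.17 (SE, limma adjusted p = 0.824). Fabp5 had signals of 1034.2 and 1450.2 in obese tissue and of 1107.0 and 1537.3 in control tissue. Replicate 2 was well above replicate 1 in both groups, by 0.49 on the log2 scale in obese and 0.47 in control tissue. The difference between the groups was -0.09 ± 0.23 (limma adjusted p = 0.937), and it was 0.15 without obese replicate 1 or without control replicate 2.

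Macrophage markers were lower on average in obese tissue for 17 of 17 tested genes, 14 of them with groups that did not overlap (24.4% of all probe sets lay below), and 0 passed over all probe sets. Their summed signal was 10274.3 and 10249.2 in obese tissue, against 14016.2 and 16945.5 in control tissue, and 0 of them were at a signal of 0. Cd36, Fabp4 and Fabp5 are also made by macrophages and endothelium, and what these cells added to the signals was not tested. In bulk tissue, fewer cells of a type and less RNA per cell cannot be told apart.

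The caveolins are the structural proteins of caveolae. Cav1 had signals of 2052.7 and 2405.6 in obese tissue and of 1871.7 and 2072.9 in control tissue with its main probe set. Obese replicate 1 lay just under control replicate 2, and the difference was 0.17 ± 0.16 (SE, limma adjusted p = 0.809). Its second probe set, 1370131_at, had signals of 1397.0 and 1505.5 in obese tissue and of 1519.0 and 932.1 in control tissue. On this one control replicate 2 was far below the other 3 arrays, which its main probe set did not show, and the difference of 0.29 ± 0.24 was -0.07 without that array and 0.64 without control replicate 1. Cav2, which needs caveolin-1 to reach the cell surface, had signals of 491.3 and 718.6 in obese tissue and of 574.0 and 482.3 in control tissue. Obese replicate 2 was the highest array, and obese replicate 1 lay between the 2 control arrays. The gap between the control arrays, replicate 2 minus 1, was -0.25 on the log2 scale. The difference between the groups was 0.18 ± 0.21 (limma adjusted p = 0.866), and it was -0.10 without obese replicate 2.

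Smooth muscle cells and endothelium are rich in caveolae too. The summed signal of 15 smooth muscle and pericyte markers was 7765.5 and 4904.8 in obese tissue, against 4438.5 and 4683.8 in control tissue, highest on obese replicate 1. Both caveolins had their higher obese signal on obese replicate 2, as had all 11 probe sets of these genes. The summed signal of 15 endothelial markers was 4464.8 and 4384.6 in obese tissue, against 4514.3 and 4471.6 in control tissue, and their median log2 difference was -0.01. What either cell type added to the caveolin signals was not tested.

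For the main probe sets of these genes the 2 obese arrays stood farther apart than the groups did. All 11 probe sets were higher on obese replicate 2 than on obese replicate 1, where 42.2% of all tested probe sets were. The median gap over the 8 main probe sets was 0.32 on the log2 scale, against -0.05 over all probe sets. Bright probe sets as a class leaned the same way: of 433 with a mean signal of at least 1000, a level chosen after the values were seen, 76.7% were higher on obese replicate 2, by a median of 0.20. Of the 8 main probe sets 5 reached that level. Between the control arrays, 7 of 8 main probe sets were higher on replicate 2, with a median gap of 0.13. For 8 of 8 main probe sets the gap within obese tissue exceeded the difference between the group means, and for 3 of 8 the gap within control tissue did. These last counts were not made over all probe sets, so they do not show whether these genes differ from others. Probe sets 1389611_at of Vldlr and 1370131_at of Cav1 went the other way within obese tissue. Their gaps within obese tissue were 0.31 and 0.11, against differences of 0.61 and 0.29. Within control tissue their gaps, replicate 2 minus 1, were 0.22 and -0.70, and the groups of 1370131_at overlapped. The summed signal of the adipocyte markers was 17635.5 and 22908.9 in obese tissue, against 16680.8 and 14939.8 in control tissue. These markers thus summed higher on replicate 2 in obese tissue and lower on it in control tissue. Their part in these gaps was not tested.

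**Figure D3:**
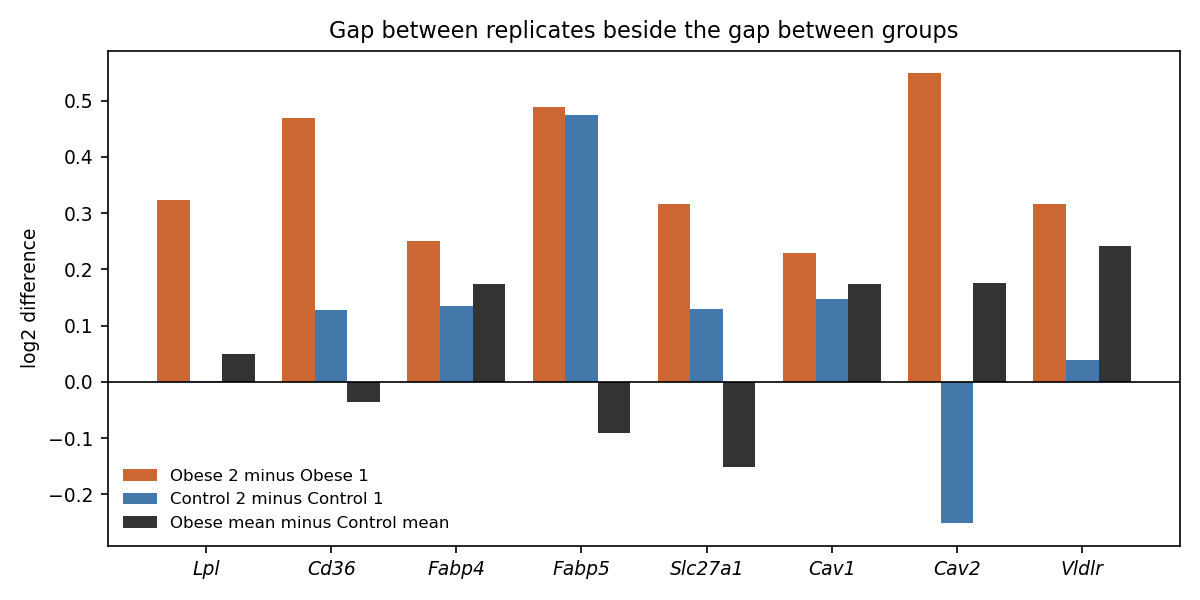
Log2 differences for the 8 main probe sets (vertical axis): obese replicate 2 minus 1 (orange), control replicate 2 minus 1 (blue) and obese mean minus control mean (dark grey). The orange bar is above 0 for all 8 genes and longer than the dark bar for each.

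**Figure D4:**
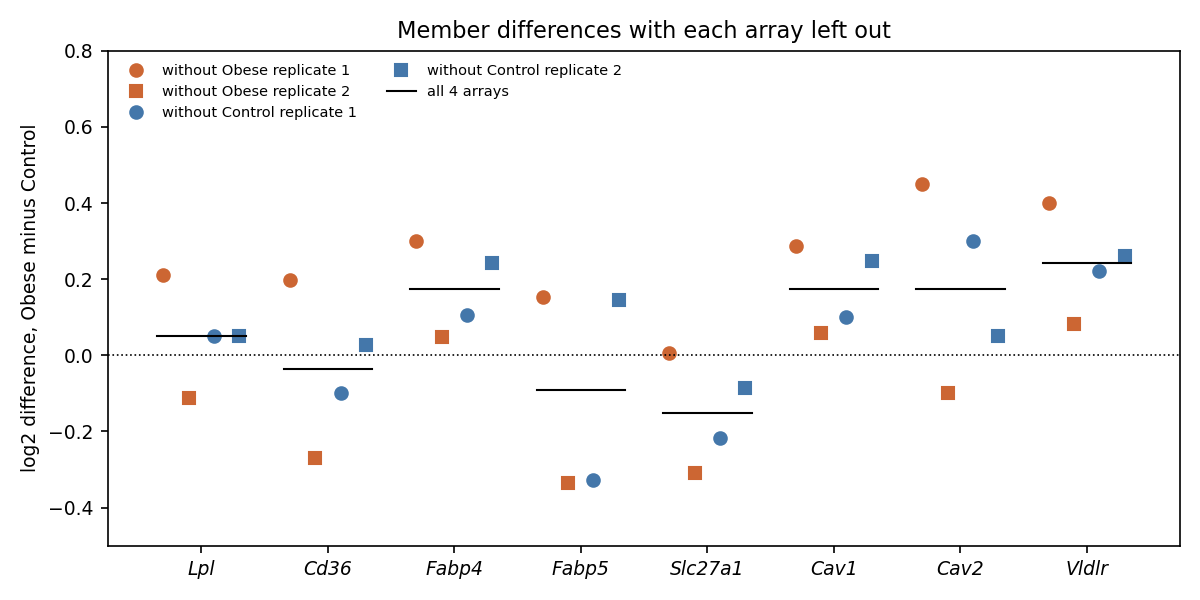
Log2 difference, obese minus control, of the 8 main probe sets with all 4 arrays (black line) and with 1 array left out (points; orange for an obese array, blue for a control array, circle for replicate 1, square for replicate 2). Fabp4, Cav1 and Vldlr stay above 0 in each case, and without obese replicate 2 the lowest value is -0.34, for Fabp5.

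Adipocyte markers that share no gene with these members gave larger differences on the same arrays. Of 15 tested, 13 were higher on average in obese tissue and 9 had both obese arrays above the controls (15.6% of all probe sets did), with a median of 0.50, and 0 passed over all probe sets. That median was 0.28 without obese replicate 2 and 0.72 without obese replicate 1. The lipolysis inhibitor G0s2 had signals of 857.8 and 1094.1 in obese tissue, against 628.2 and 568.8 in control tissue, a difference of 0.70 ± 0.16 (SE, limma adjusted p = 0.460). The glycerol phosphate dehydrogenase gene Gpd1 differed by 0.50 ± 0.21, and adipsin, Cfd, by -0.02 ± 0.15. The contrast between the 2 groups of genes was not tested, and both were chosen with earlier results of these data known.

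Other genes of the pathway were read from 3 lists of 81 genes, of which 67 had a probe set and 56 a main probe set bright enough to test. None of the 56 passed over all probe sets, and the lowest adjusted p in limma was 0.467, for Crabp1. That gene reached the test through its control arrays alone. Both its obese signals were set to the floor, so their spread was not measured. The first list held partners of lipoprotein lipase and lipoprotein receptors. Of its 21 tested genes 10 were higher and 11 lower on average in obese tissue, 4 lay fully above and 4 fully below (19.0% each way, against 16.4% above and 24.0% below over all tested genes), and the median was -0.06.

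Proteins that restrain the lipase were among them. Angptl8, which in mice and humans acts with a related protein to inhibit the lipase and which responds to feeding, had signals of 105.9 and 396.8 in obese tissue and of 23.7 and 77.7 in control tissue. The arrays of each group differed widely, control replicate 1 was close to the floor, and the groups did not overlap. The difference was 2.26 ± 0.77 (SE, limma adjusted p = 0.552), between 1.30 and 3.21 with an array left out. Angptl4, the inhibitor induced by fasting, had signals of 1585.6 and 1957.0 in obese tissue and of 1529.9 and 1527.8 in control tissue, a difference of 0.20 ± 0.16. Gpihbp1, the endothelial protein that carries the lipase to the capillary lumen, had signals of 424.7 and 651.9 in obese tissue and of 577.8 and 605.0 in control tissue. Its obese arrays enclosed the control arrays, as for Lpl itself, with a difference of -0.17 ± 0.22.

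Factors for the maturation and export of the lipase, Lmf1 and Sel1l, were lower on average in obese tissue, and neither passed. Lmf1, the lipase maturation factor, had signals near the floor, of 26.9 and 38.9 in obese tissue and of 40.2 and 47.1 in control tissue. Its difference was -0.43 ± 0.25 (SE). Sel1l, which in mice is needed for the lipase to leave the endoplasmic reticulum, differed by -0.31 ± 0.14. Both had obese arrays below both control arrays, Lmf1 by a narrow margin. Lmf2, a relative of Lmf1, had signals of 146.9 and 148.4 in obese tissue and of 118.5 and 119.7 in control tissue, fully above, with a difference of 0.31 ± 0.15. Among receptors, the HDL receptor gene Scarb1 had signals of 362.1 and 277.4 in obese tissue and of 452.1 and 426.2 in control tissue, a difference of -0.47 ± 0.16 (limma adjusted p = 0.557), and its second probe set gave -0.65. The receptor gene Lrp1 differed by -0.06 ± 0.12, with a positive sign under median centring, and apolipoprotein E, Apoe, which lipoprotein receptors bind and macrophages also make, by -0.31 ± 0.22. Sortilin, Sort1, differed by 0.68 ± 0.29, by 0.26 without control replicate 1 and 1.10 without control replicate 2, and its second probe set gave -0.11.

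The second list held further transporters, binding proteins and enzymes that activate fatty acids. Of its 19 tested genes 13 were higher and 6 lower on average in obese tissue, 7 lay fully above and 2 fully below (36.8% and 10.5%, against 16.4% and 24.0% over all tested genes), and the median was 0.15. Crabp1 was among those fully below, with both obese signals under the floor. Without obese replicate 2 the median was 0.052, and without obese replicate 1 it was 0.24. The other transport proteins overlapped in 4 of 4 cases, where 60.0% of all tested probe sets did. They lay between -0.33 for Slc27a4 and 0.34 for Slc27a3, whose second probe set gave -0.18. Of 7 other Fabp genes, 6 were at or under the floor on all 4 arrays, among them the liver form Fabp1 and the intestinal form Fabp2. Fabp3, the heart and muscle form, had signals of 87.7 and 293.9 in obese tissue and of 81.5 and 116.4 in control tissue. Only obese replicate 2 stood above the rest, and the difference was 0.72 ± 0.55.

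Acyl-CoA synthetases trap fatty acids in the cell by linking them to coenzyme A. Acsl1, the main form of fat cells, had signals of 2097.9 and 2560.7 in obese tissue and of 1984.1 and 2086.4 in control tissue. The groups lay apart by a narrow margin, with a difference of 0.19 ± 0.16 (SE, limma adjusted p = 0.796), and its second probe set gave 0.19 as well. Acss2, which activates acetate for lipid synthesis, differed by 0.44 ± 0.17, and its mitochondrial relative Acss1 by -0.35 ± 0.16. Dbi, the acyl-CoA binding protein, had signals of 1161.4 and 1796.2 in obese tissue and of 927.8 and 939.8 in control tissue. Both obese arrays were above both controls, and the difference was 0.63 ± 0.22 (limma adjusted p = 0.557), between 0.31 without obese replicate 2 and 0.94 without obese replicate 1.

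Carriers of retinoids belong to the same protein family as the FABPs. Crabp2, which brings retinoic acid to the nucleus, had signals of 140.7 and 52.5 in obese tissue and of 29.1 and 31.7 in control tissue, a difference of 1.50 ± 0.46 (SE, limma adjusted p = 0.522), between 0.79 and 2.21 with an array left out. Its relative Crabp1 had signals under the floor in obese tissue, at 8.8 and 16.6, against 35.1 and 34.6 in control tissue. Zdhhc5, the enzyme that attaches palmitate to CD36 in mice, differed by 0.39 ± 0.19. The receptor gene Pparg, whose product drives Lpl, Cd36 and Fabp4 in fat cells, had signals of 372.9 and 400.7 in obese tissue and of 389.4 and 364.6 in control tissue. Its groups overlapped, with a difference of 0.04 ± 0.12.

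The third list held the rest of the caveola. Of its 16 tested genes 9 were higher and 7 lower on average in obese tissue, 3 lay fully above and 4 fully below (18.8% and 25.0%, against 16.4% and 24.0% over all tested genes), and the median was 0.015. Cavin3, another cavin of the coat, had signals of 1137.9 and 1277.9 in obese tissue and of 1038.6 and 977.8 in control tissue. The groups did not overlap, and the difference was 0.26 ± 0.13 (SE, limma adjusted p = 0.671). The membrane-shaping EHD and PACSIN proteins at the caveola neck overlapped in 5 of 5 tested cases, where 60.0% of all tested probe sets did. They lay between -0.17 for Ehd4 and 0.32 for Pacsin3. Cav3, the muscle caveolin, was near the floor, with signals of 26.6 and 20.9 in obese tissue and of 17.7 and 26.1 in control tissue. The flotillins, which mark other membrane domains, gave -0.02 ± 0.16 for Flot1, with a positive sign under all 3 other scalings, and 0.13 ± 0.13 for Flot2. The insulin receptor gene Insr differed by -0.28 ± 0.21 and filamin A, Flna, which links caveolin-1 to actin, by 0.27 ± 0.19.

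**Figure D5:**
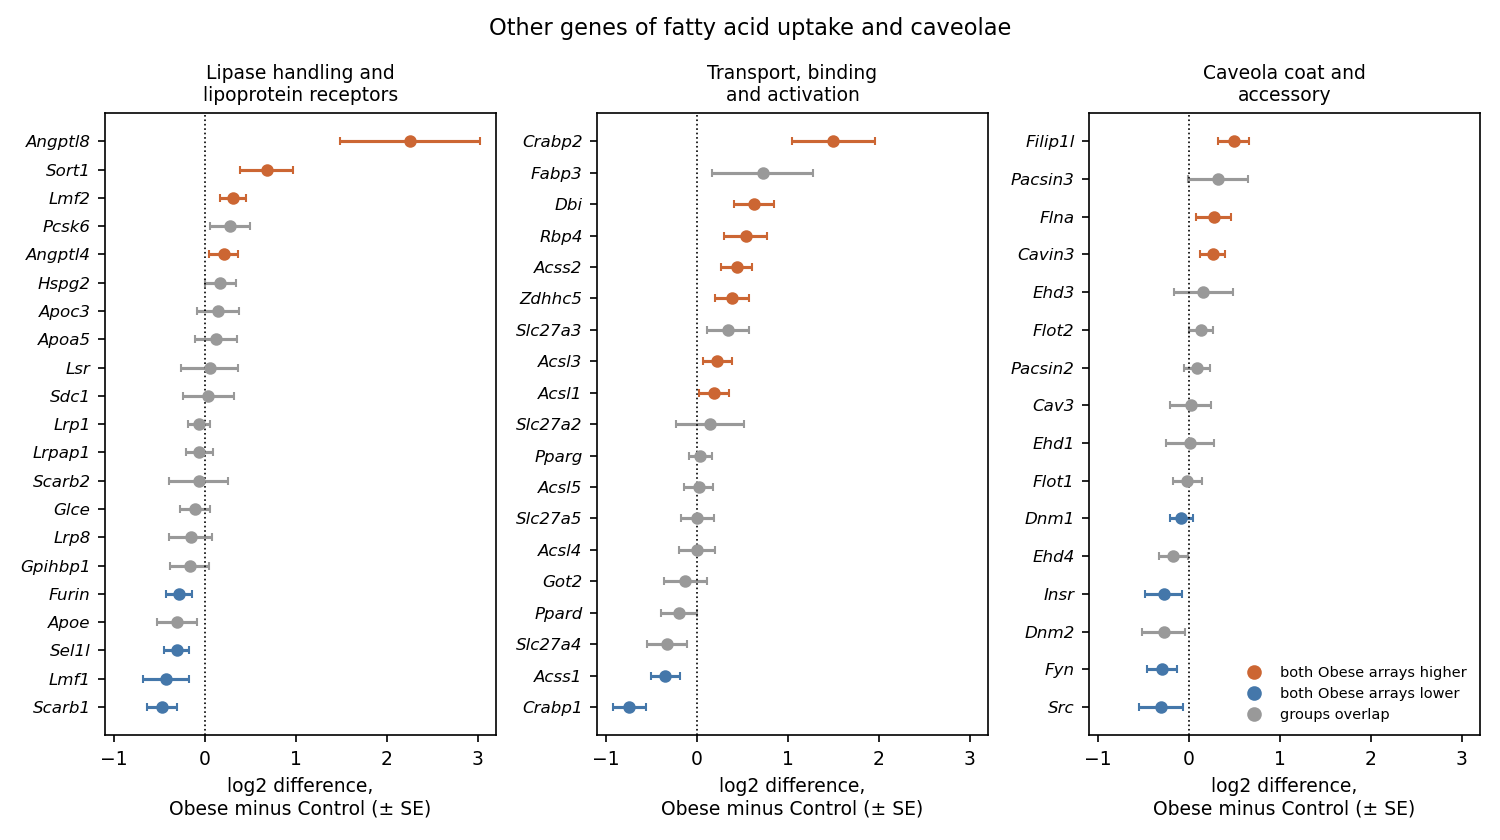
Log2 difference, obese minus control, ± SE (horizontal axis) of the tested genes of the 3 lists, in order of size within each list; orange where both obese arrays were above both control arrays, blue where both were below and grey where the groups overlapped. Angptl8 at 2.26 and Crabp2 at 1.50 lie farthest to the right, and Crabp1 farthest to the left, its obese signals being at the floor.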

How the data were processed

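RNA of visceral adipose tissue was measured on 4 single-colour arrays. The table deposited by the authors holds linear intensities, judging by the values, with 1 per probe set for each array. What software and normalization were used is not stated in these sources. With 2% of probe sets trimmed from either end, the array means were nearly equal, so the deposited intensities had been scaled and were not scaled again. From 15923 probe sets 57 control probe sets were left out. The platform's annotation pairs 12783 of the rest with 1 symbol, 312 with several and 2771 with none. Symbols were looked up by Entrez identifier in the GRCr8 table, which held 12748 and changed 0.

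Signals were raised to the floor of 20.8, log2 was taken, and probe sets above the floor on at least 2 of the 4 arrays were tested, 12929 in all, named or not. Of the genes, 9011 had a tested main probe set. Obese was compared with control by a two-sided moderated test in R 4.3.3 with limma 3.58.1 (eBayes, variance trend), and p-values were adjusted by Benjamini-Hochberg across the 12929 probe sets. Standard errors and intervals are moderated, with 5.83 degrees of freedom. Lists are described by counts and medians, without a set test. All members, any gene of the 3 pathway lists, and from each marker list the 2 brightest and those with the extreme t could be named; Actg2 and Slc2a4 were named after their values were seen. The members and lists were chosen with earlier results of these data known. The code was tested on simulated data. The alternatives were 3 scalings, other floors, a pseudocount of 16, other filters and variance models, a replicate block, an unmoderated test, the mean over probe sets and fits without each array in turn.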

Additional observations from a re-analysis of the deposited data

How the results depend on the processing

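The members' differences were small beside the spread of the arrays, so that 5 of the 8 genes changed sign somewhere. Cd36 gave 0.044 with median centring. Cyclic loess gave -0.049 for Lpl and quantile normalization gave -0.024. With an array left out, Lpl lay between -0.11 and 0.21, Cd36 between -0.27 and 0.20, Fabp5 between -0.34 and 0.15, Slc27a1 between -0.31 and 0.0065, and Cav2 between -0.10 and 0.45. The sign turned without obese replicate 2 for Lpl and Cav2, without obese replicate 1 for Slc27a1, and without obese replicate 1 or control replicate 2 for Cd36 and Fabp5. Fabp4, Cav1 and Vldlr kept their sign in all 17 alternatives, and none of the 8 genes passed in any. With an array left out, its lone partner takes the spread of the other group. The members lying fully above the controls were 3 with quantile normalization (18.7% of all probe sets), 3 with cyclic loess (19.0%) and 2 with the mean over probe sets (16.1% of genes). With an array left out they were between 1 and 6, where 27.0% to 32.1% of all probe sets lay fully above. Those lying fully below were then between 0 and 4, where 36.1% to 46.0% of all probe sets did. The members' median was between -0.11 and 0.25 with an array left out. The median of lipase partners was between -0.11 and 0.056, that of transport and activation genes between 0.052 and 0.24, and that of caveola genes between -0.096 and 0.011. With median centring, transport and activation genes gave 0.22 and caveola genes 0.094. Transport and activation genes gave 0 without a filter, since dim genes at the floor then count, and 0.080 with the mean over probe sets. Over all probe sets, the number passing limma was 1 with median centring, 3 with the pseudocount, 6 without a filter, 1 without the variance trend and 1 with robust variance. The number lying apart by at least 2-fold was 314 with the floor at the 10th percentile and 71 at the 40th, against 147, and between 190 and 308 with an array left out. The replicate numbers do not pair the samples by any label, and the replicate gaps of the 2 groups correlated with r = 0.05 over probe sets. The fit with a replicate block passed 0 probe sets, left 1 member fully above and 0 fully below, with the members' median at 0.11 and Vldlr at 0.24 (limma adjusted p = 0.726). The plain test also passed 0, with 882 at an unadjusted p under 0.05, against 1073 in the moderated test. The causes of these shifts were not tested. No detection call was used, so dim signals have only the bound given by the floor.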
